A study of Schizosaccharomyces pombe with 18 samples.

Results

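rpl3201 and rpl3202 are the paralogous genes of ribosomal protein L32 in the fission yeast Schizosaccharomyces pombe, and their products are called Rpl32-1 and Rpl32-2. Each was read by 1 probe set, 1774603_at for rpl3201 and 1777518_at for rpl3202, taken because the array annotation gives these symbols. They are 2 of 2937 named S. pombe probe sets. rpl3201 (SPBC16C6.11) lies on chromosome II. rpl3202 (SPAC3H5.10) lies on chromosome I, where its annotated span overlaps the long non-coding RNA gene SPNCRNA.3525. Below, rpl3201 and rpl3202 are the genes and their probe sets, while rpl32-1 and rpl32-2 are the strains that carry a plasmid copy of one of them.

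L32 is a protein of the large ribosomal subunit, and cells need it to make ribosomes. Fission yeast carries most ribosomal protein genes in more than one copy, and the copies of a gene usually encode proteins that are nearly the same. Messenger RNAs of ribosomal proteins are among the most abundant of growing yeast, and their amount follows the growth rate and the nutrient-sensing TOR pathway.

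Total RNA of 18 cultures was hybridized to 18 Affymetrix yeast arrays, 3 for each of 6 groups, to find genes that respond differently to the L32 paralogs. All cells were strain SP-Q01 (h-, leu1-32) grown in EMM2, a minimal medium, at 30 °C, and all kept their chromosomal copies of both genes. rpl32-1 cells carried the plasmid pESP3 with RPL3201, rpl32-2 cells carried it with RPL3202, and WT cells carried it empty. Each strain was sampled in early stationary phase (OD600, the optical density of the culture, of 10) and in log phase (OD600 of 0.5). The labels name pESP3, while the methods describe cloning into pREP3X for overexpression, so the vector is not settled. Both vectors drive the insert from the nmt1 promoter, which is repressed by thiamine. The labels call the 3 arrays of a group biological replicates and say no more of how the cultures were set up.

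The primers of the study show how alike the coding sequences are and where they can be told apart. The first set amplified the inserts for overexpression. In it, lower case marks the tail with the restriction site and capitals mark the gene, and the capitals begin at the start codon (fo) or at the complement of the stop codon (re):
RPL32-1fo: ccgctcgagATGGCTGCAATCAACATTGTC
RPL32-1re: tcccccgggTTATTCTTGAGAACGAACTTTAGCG
RPL32-2fo: ccgctcgagATGGCTGCTGTCAATATCATC
RPL32-2re: tcccccgggTTACTCCTGAGAGCGAACC
An insert made with these primers runs from start codon to stop codon and holds none of the untranslated sequence of the gene. The methods describe cloning such inserts into pREP3X, so whether the pESP3 plasmids of the labels carried them is not settled.

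The second set measured each mRNA by QPCR, and capitals mark the bases that differ between the paralogs:
rpl32-1fo: ggctgcAAtcaaCatTGtcaaAaagcg
rpl32-2fo: ggctgcTGtcaaTatCAtcaaGaagcg
rpl32-1re: gTtcGacatcAgaGacAttGcgAacAag
rpl32-2re: gCtcAacatcTgaAacGttAcgGacTag
The forward primers differ at 6 of 27 bases and the reverse primers at 8 of 28. The positions of the array probes within either gene are not given in the sources used here. Whether a probe set reads the plasmid transcript as well as the chromosomal one, or reads the other paralog in part, was not tested.

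Values are log2 signals. The arrays did not share one distribution of values as deposited, and fell into 5 sets of 2 to 6 arrays that cut across strain and phase. All values below were therefore quantile-normalized over the 2937 S. pombe probe sets, unless the text says as deposited. rpl32-1 log array 3 and WT early stationary array 3 had the weakest signal, where 18.7% and 21.7% of the S. pombe probe sets did not rise above background (0.715% to 4.70% elsewhere). Background is the 95th percentile of the S. cerevisiae probe sets of the same array. Both paralogs lay above it on all 18 arrays, rpl3201 by 6.37 to 9.54 and rpl3202 by 3.73 to 9.02 as deposited.

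The level of rpl3201 checks the label of the rpl32-1 strain. In early stationary phase rpl3201 measured 14.25, 13.55 and 11.68 on arrays 1, 2 and 3 labelled rpl32-1, 13.41, 12.16 and 12.19 on those labelled rpl32-2, and 13.48, 13.61 and 14.29 on those of WT cells. In log phase it measured 14.18, 14.11 and 14.37 in cells labelled rpl32-1, 13.60, 13.02 and 13.08 on the arrays labelled rpl32-2, and 13.54, 13.58 and 14.37 in WT cells. The 3 rpl32-1 log arrays were all high, but WT log array 3 was as high as the highest of them, so these groups overlapped. rpl32-1 early stationary array 3 held the lowest value of the 18, which goes against its label as far as the probe set reads the plasmid transcript. All arrays of both strains are therefore named by their labels.

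The 18 values of rpl3201 are described here in 3 ranges. It lay between 14.11 and 14.37 on 6 arrays, namely the 3 of rpl32-1 log, rpl32-1 early stationary 1, WT early stationary 3 and WT log 3. It lay between 13.41 and 13.61 on 7 arrays, and between 11.68 and 13.08 on the other 5. The lowest range was itself split, with 11.68, 12.16 and 12.19 on early stationary arrays and 13.02 and 13.08 on log arrays. On rpl32-1 log array 3 and WT log array 3 rpl3201 gave the highest value of the array, and quantile normalization allows no higher one. The highest S. pombe value of an array was 14.10 to 14.88 as deposited.

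The level of rpl3202 checks the label of the rpl32-2 strain. In early stationary phase rpl3202 measured 13.46, 8.80 and 7.72 on arrays 1, 2 and 3 labelled rpl32-2, against 13.50, 13.58 and 13.70 in WT cells. In log phase it measured 13.79, 10.88 and 8.40 on the arrays labelled rpl32-2, against 13.73, 13.78 and 13.78 in WT cells. Of the 6 arrays labelled rpl32-2, log array 1 stood highest against the WT mean of its phase, at 0.031 above it, and 4 stood far below it. This goes against a label of overexpression as far as the probe set reads the plasmid transcript, and QPCR measurements of the study were not analysed here.

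The arrays labelled rpl32-1 gave 13.55, 13.63 and 8.96 of rpl3202 in early stationary phase and 13.74, 13.73 and 13.77 in log phase. Array 3 of rpl32-1 early stationary was thus as low as the arrays labelled rpl32-2. rpl3202 lay between 13.46 and 13.79 on 13 arrays and between 7.72 and 10.88 on the other 5. Against the 2937 probe sets of its own array, rpl3202 held positions 33 to 98 from the top on the 13 and positions 871 to 2617 on the 5.

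**Figure D1:**
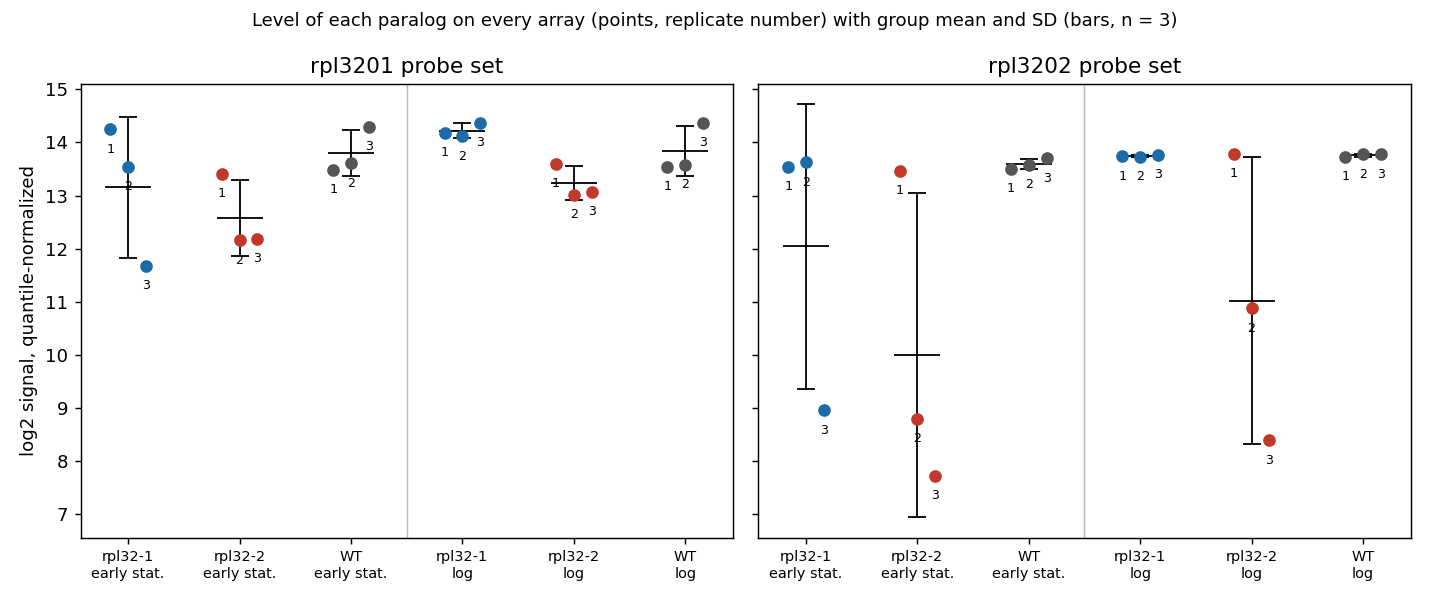
Log2 signal after quantile normalization (vertical axis) of rpl3201 (left) and rpl3202 (right) on each array, by strain and phase, with the replicate number under each point, the group mean as a horizontal line and the SD as a bar (n = 3). rpl3202 stayed within 13.46 to 13.79 on 13 arrays and lay between 7.72 and 10.88 on arrays 2 and 3 labelled rpl32-2 in each phase and on rpl32-1 early stationary array 3.

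By group mean, rpl3201 was highest in rpl32-1 log at 14.22 ± 0.13 (SD, n = 3), followed by WT log at 13.83 ± 0.47, WT early stationary at 13.80 ± 0.43, rpl32-2 log at 13.23 ± 0.32, rpl32-1 early stationary at 13.16 ± 1.33 and rpl32-2 early stationary at 12.58 ± 0.72. The means of neighbours in this order lay within 1 SD of one of them, except rpl32-2 log below WT early stationary, which were 0.57 apart. For rpl3202 the order was WT log at 13.76 ± 0.03, rpl32-1 log at 13.75 ± 0.02, WT early stationary at 13.59 ± 0.10, rpl32-1 early stationary at 12.04 ± 2.67, rpl32-2 log at 11.02 ± 2.70 and rpl32-2 early stationary at 10.00 ± 3.05. Of the neighbours, rpl32-1 log and WT early stationary, which differ in both strain and phase, differed by 0.15 and did not overlap. The share of all probe sets without overlap between these groups was not counted. The last 3 groups overlapped each other widely.

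The low arrays were shared by the pair. The 5 lowest values of rpl3201 and the 5 lowest values of rpl3202 came from the same 5 arrays, namely arrays 2 and 3 labelled rpl32-2 in both phases and rpl32-1 early stationary array 3. On these 5 arrays rpl3201 lay between 11.68 and 13.08, below its lowest value of 13.41 on the other 13. The order within the 5 differed between the genes, with rpl3201 lowest on rpl32-1 early stationary 3 and rpl3202 lowest on rpl32-2 early stationary 3. The points form separate clusters, so no correlation over arrays is given.

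**Figure D2:**
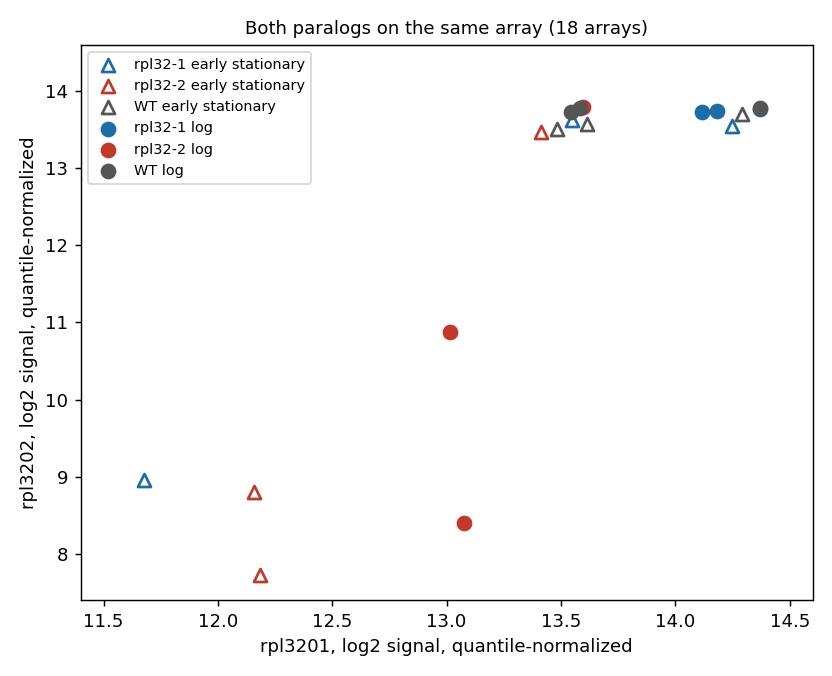
rpl3202 (vertical axis) against rpl3201 (horizontal axis) on the same array, both as log2 signal after quantile normalization, with 1 point for each of 18 arrays (circles, log phase; open triangles, early stationary phase; the points of rpl32-1 log 3 and WT log 3 coincide). The 13 arrays at the top differ in rpl3201 from 13.41 to 14.37 with rpl3202 near 13.46 to 13.79, and the 5 others are low in both.

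The within-array difference, rpl3201 minus rpl3202, showed how unequal the changes were. Its sign has no meaning, since the probes of each set bind with their own strength, and only its change between arrays was read. In early stationary phase it was 0.70, −0.08 and 2.72 in cells labelled rpl32-1, −0.05, 3.35 and 4.46 on the arrays labelled rpl32-2, and −0.02, 0.04 and 0.59 in WT cells. In log phase it was 0.44, 0.38 and 0.60 in cells labelled rpl32-1, −0.19, 2.13 and 4.68 on the arrays labelled rpl32-2, and −0.19, −0.19 and 0.60 in WT cells. The 5 low arrays had the 5 largest differences, as rpl3202 was lower by more than rpl3201 on each.

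Whether overexpression moved the pair was tested with limma over all 2937 probe sets, and a call needed both a change of 2-fold or more and an adjusted p below 0.05. In early stationary phase rpl3202 averaged 10.00 on the arrays labelled rpl32-2 against 13.59 in WT cells, a change of −3.60 (SE 1.47, 95% confidence interval −6.73 to −0.47, p 0.0271, adjusted p 0.191). rpl3201 averaged 12.58 against 13.80, a change of −1.21 (SE 0.51, interval −2.30 to −0.12, p 0.0315, adjusted p 0.20). Neither was called, and 0% of all probe sets were called in this comparison, while 3.17% passed an unadjusted p under 0.05 and 2-fold. Both paralogs were lower on every array labelled rpl32-2 than on any WT array, as were 6.44% of all probe sets. This non-overlap was narrow, because array 1 labelled rpl32-2 stood only 0.07 below the lowest WT array for rpl3201 and 0.04 for rpl3202, and as deposited both genes overlapped. The deposited values gave a change of −2.93 for rpl3202 and −1.05 for rpl3201, with the median of all probe sets at 0.65.

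In log phase rpl3202 averaged 11.02 on the arrays labelled rpl32-2 against 13.76 in WT cells, a change of −2.74 (SE 1.47, interval −5.87 to 0.39, limma adjusted p 0.961). rpl3201 changed by −0.60 (SE 0.51, adjusted p 0.961), and by −0.33 without WT log array 3, where it gave the highest value of the array. Neither was called, and both overlapped with WT after quantile normalization. The call rate over all probe sets was 0%, and 0.17% passed without adjustment. rpl3202 changed by −4.12 without array 1 and by −1.42 without array 3 of the group. As deposited, both genes were lower on every array labelled rpl32-2 than on any WT array of log phase. The deposited changes were −2.99 for rpl3202 and −0.87 for rpl3201, with the median of all probe sets at −0.67. The share of all probe sets without overlap as deposited is not given here.

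On the arrays labelled rpl32-1, rpl3201 itself was 0.39 above WT in log phase (SE 0.51, interval −0.70 to 1.48, limma adjusted p 0.920) and 0.64 below WT in early stationary phase (SE 0.51, interval −1.73 to 0.45, adjusted p 0.945). Without WT log array 3 the log phase value was 0.66, and without rpl32-1 early stationary array 3 the early stationary value turned to 0.10. rpl3202 changed by −1.55 in early stationary phase (SE 1.47, adjusted p 0.945) and by −0.01 in log phase (adjusted p 0.997), and the first of these was −0.01 without rpl32-1 early stationary array 3. In log phase the SD of rpl3202 was 0.02 in rpl32-1 and 0.03 in WT cells, so its limma p there reflects the spread of groups not compared. Call rates over all probe sets were 0% in both phases, and 0.17% and 0.647% passed unadjusted in early stationary and log phase.

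Taking the mean of the changes in both phases used 6 arrays on each side. On the arrays labelled rpl32-2 rpl3202 changed by −3.17 (SE 1.04, interval −5.38 to −0.95, p 0.00816, limma adjusted p 0.376) and rpl3201 by −0.91 (SE 0.36, interval −1.68 to −0.14, p 0.0239, adjusted p 0.376). The call rate over all probe sets was 0%, and 0.477% passed without adjustment. In cells labelled rpl32-1 the values were −0.78 for rpl3202 and −0.12 for rpl3201, with adjusted p of 0.988 and 0.990. Without early stationary array 3 of the strain they were −0.01 and 0.25.

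The same means were tested with an exact two-sided permutation test over arrays within phase (400 labelings) and adjusted over 6 such tests. For the arrays labelled rpl32-2 rpl3202 gave p 0.025 and rpl3201 gave p 0.015, both with an adjusted p of 0.075 by this exact test. The within-array difference was higher by 2.26, with an exact p of 0.08 (adjusted 0.16). For cells labelled rpl32-1 the exact p were 0.415 for rpl3202, 0.85 for rpl3201 and 0.165 for the difference. Leaving out array 1 labelled rpl32-2 of either phase brought all 3 tests under 0.05 after adjustment, to 0.015 without the log array and to 0.04 without the early stationary array, except the difference, which reached 0.04 in both. Array 1 is the one of each phase where rpl3202 stood near WT, at 13.79 in log and 13.46 in early stationary phase. Its removal was therefore bound to widen the change. Within 1 phase, the smallest exact p that 3 arrays in each group allow is 0.1, and the exact p of the difference between a strain and WT ran from 0.3 to 0.5.

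**Figure D3:**
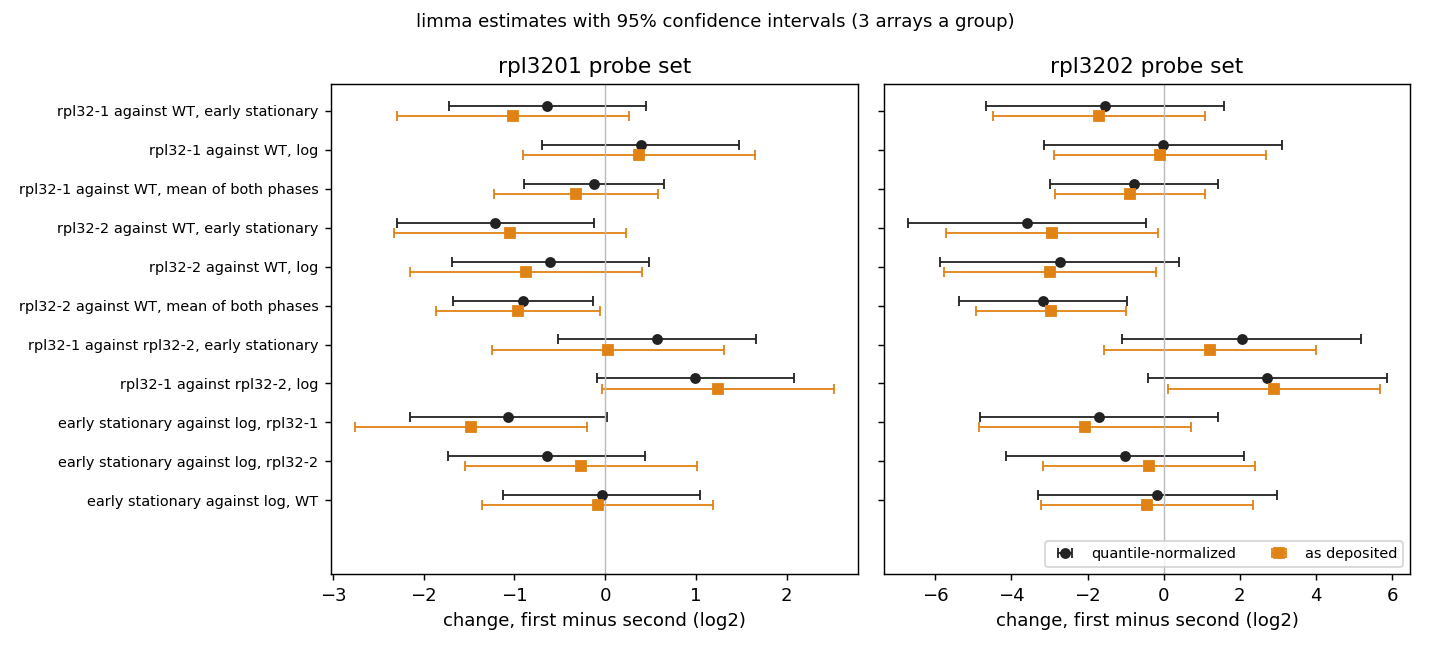
Change in log2 signal (horizontal axis, first group minus second) of rpl3201 (left) and rpl3202 (right) in each comparison, as the limma estimate with its 95% confidence interval, for quantile-normalized values (circles) and values as deposited (squares). The intervals of rpl3202 span several log2 units and exclude 0 after quantile normalization only for the arrays labelled rpl32-2 against WT in early stationary phase, at −6.73 to −0.47, and over both phases, at −5.38 to −0.95, before adjustment.

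The 5 array sets each held more than 1 group, and were also fitted as a block. For the arrays labelled rpl32-2 this gave −3.33 in early stationary phase and −2.81 in log phase for rpl3202, and −0.97 and −0.09 for rpl3201, with a smallest limma adjusted p of 0.297. For cells labelled rpl32-1 it gave 0.045 and 0.29 for rpl3201, and −1.34 and −0.31 for rpl3202, none of which was called.

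A weight for each array, estimated from all probe sets, changed the call. With these weights rpl3202 was called lower in the group labelled rpl32-2 than in WT cells, at −4.04 in early stationary phase (limma adjusted p 0.0154), −2.93 in log phase (adjusted p 0.0486) and −3.48 over both phases (adjusted p 0.003). With the same weights 5.79%, 0.579% and 1.16% of all probe sets were called in these comparisons. The weights ran from 0.13 to 10.6, and their estimation stopped short of full convergence. They were 0.79, 4.16 and 0.16 for early stationary arrays 1, 2 and 3 labelled rpl32-2, so that group mean rests mostly on array 2. WT log arrays 1, 2 and 3 had weights of 0.75, 10.6 and 8.33, so array 1 counted little there. rpl3201 stayed short of 2-fold over both phases, at −0.99 (adjusted p 0.0324), and was not called. rpl3202 was also called higher in cells labelled rpl32-1 than on early stationary arrays labelled rpl32-2, by 3.29 (adjusted p 0.0221), beside 6.3% of all probe sets called in either direction.

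The strains were also set against each other. In log phase rpl3201 was 14.22 in cells labelled rpl32-1 and 13.23 on the arrays labelled rpl32-2, a difference of 0.99 (SE 0.51, limma adjusted p 0.999) without overlap, as for 5.38% of probe sets in that direction. rpl3202 was higher by 2.72 in cells labelled rpl32-1 in log phase and by 2.05 in early stationary phase (SE 1.47 each, adjusted p 0.999 and 0.491), and the groups overlapped. The log value was 1.41 without rpl32-2 log 3 and 4.11 without rpl32-2 log 1, and the early stationary value 0.91 without rpl32-2 early stationary 3 and 3.78 without rpl32-2 early stationary 1. In early stationary phase rpl3201 was higher by 0.57 (adjusted p 0.605), by 0.03 without rpl32-1 early stationary 1 and by 1.31 without rpl32-1 early stationary 3. The call rate over all probe sets was 0% in both phases. The limma interaction test, which asks whether the change between phases differed between a strain and WT, called neither gene (adjusted p from 0.705 to 0.862), nor any other probe set (0%).

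Some arrays of different strains were nearly alike over all probe sets, and the pair was compared between them. Of the 153 pairs of arrays, the closest by the median absolute difference over all probe sets were WT log 2 and WT log 3, at 0.056, against a median of 0.39 over all pairs. Next came rpl32-2 log 3, as labelled, against WT log 2 and against WT log 3, at 0.076 and 0.077. Between these nearly matching arrays rpl3202 was lower by 5.38 in both cases, more than any other probe set differed, and rpl3201 was lower by 0.51 and 1.30, with 31 and 4 probe sets differing more.

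The same held in early stationary phase. rpl32-2 early stationary 3, as labelled, and WT early stationary 2 had a median difference of 0.13, with rpl3202 at −5.85, which 0 probe sets exceeded, and rpl3201 at −1.43, which 5 exceeded. rpl32-1 early stationary 1 and rpl32-2 early stationary 3 had a median difference of 0.082, with rpl3202 higher by 5.82 and rpl3201 by 2.06 on the first. rpl3201 also differed where rpl3202 did not. Between WT log 2 and WT log 3 it differed by −0.79, with 8 probe sets differing more, while rpl3202 differed by 0.

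Within a set of arrays with like distributions, the deposited values can be compared without further normalization, with no replicate check. rpl32-2 log 3, as labelled, stood below WT log 2 and WT log 3, with differences of −4.93 and −4.92 for rpl3202 and of −0.50 and −1.02 for rpl3201. rpl32-2 early stationary 3 stood below WT early stationary 2, with differences of −5.11 and −1.33. rpl32-2 early stationary 1, on the other hand, differed from WT early stationary 1 by only −0.02 and −0.09. For cells labelled rpl32-1 rpl3201 was above the WT array of its set by 0.67 in early stationary phase and by 0.53 in log phase, and rpl3202 differed by −0.04 and 0.00. Arrays of 1 group and 1 set differed as much as strains did: rpl32-1 early stationary 2 exceeded array 3 by 4.78 for rpl3202 and 2.07 for rpl3201, and rpl32-2 log 1 exceeded array 2 by 3.22 and 0.74.

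By their median, the other ribosomal protein genes were near their WT level on the arrays where the pair was low. Against the WT mean of the phase, rpl3202 deviated by −4.64 on rpl32-1 early stationary 3, by −4.79 and −5.87 on rpl32-2 early stationary 2 and 3, and by −2.88 and −5.36 on rpl32-2 log 2 and 3. On each of these 5 arrays this was the lowest deviation of all 2937 probe sets. The median deviation of 126 other ribosomal protein probe sets there was −0.17, −0.07, −0.05, 0.03 and 0.01. Their lowest deviations were −1.16, −0.81, −0.68, −0.23 and −0.63. rpl3201 deviated by −2.12, −1.64, −1.61, −0.82 and −0.76 on the same arrays, below all 126, and 1, 32, 5, 28 and 3 of all probe sets were lower. It also lay below all 126 on WT log 1 and WT log 2, at −0.44 and −0.37 from the other WT log arrays.

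**Figure D4:**
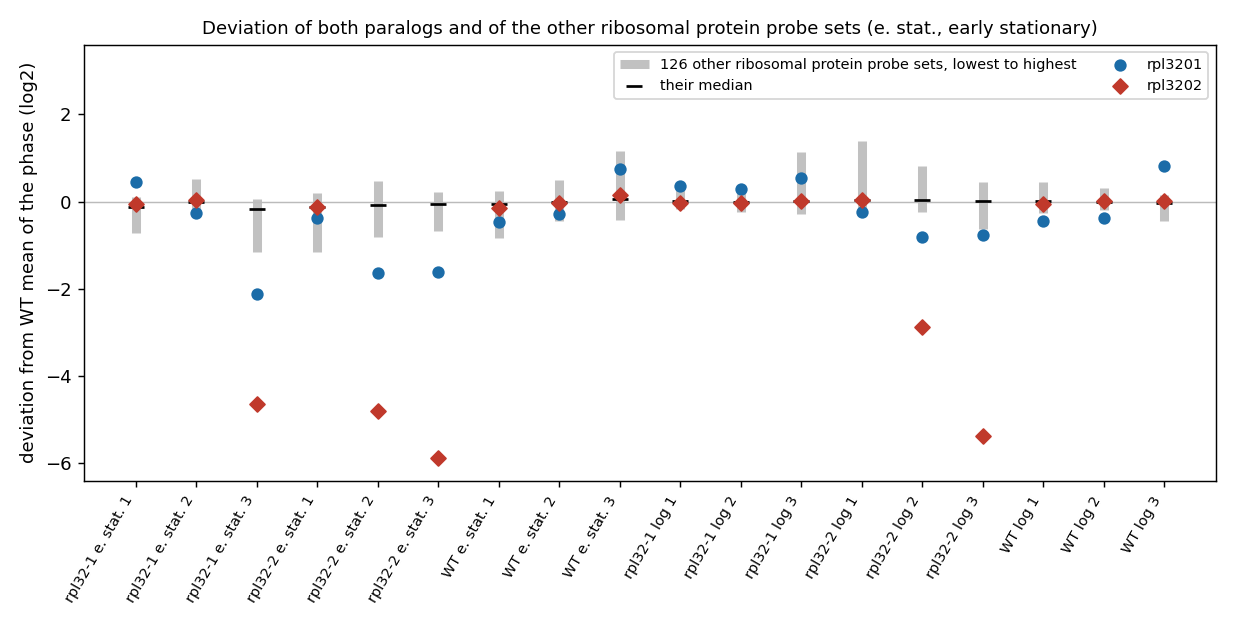
Deviation in log2 signal from the mean of the WT arrays of the same phase (vertical axis; a WT array is set against the other 2 WT arrays) on each of 18 arrays, for rpl3201 (circles), rpl3202 (diamonds) and the range and median of 126 other ribosomal protein probe sets (grey bars, dashes). rpl3202 fell outside the grey bar on 5 arrays, at −2.88 to −5.87, where the median of the other genes was −0.17 to 0.03.

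Upward deviations of rpl3201 were bounded, since it already held positions 1 to 7 of its array on the 6 arrays where it was highest. It was 0.28 to 0.54 above the WT mean on the 3 rpl32-1 log arrays, where 339 to 389 probe sets deviated more, and 0.45 above it on rpl32-1 early stationary 1, where 217 did. WT log 3 exceeded the mean of the other WT log arrays by 0.81, with 5 probe sets exceeding theirs by more, and WT early stationary 3 exceeded the others of its group by 0.74, with 345 doing so. rpl3202 deviated by 0.16 at most.

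In every comparison of a strain with WT, 0 of the 126 other ribosomal protein probe sets were called, as were 0% of all probe sets. The median change of the 126 was −0.10 in cells labelled rpl32-1 and −0.09 in those labelled rpl32-2 in early stationary phase. In log phase it was 0.00 and 0.02, and the medians of all probe sets were within 0.01 of 0. As deposited these medians were −0.27 and 0.22 in early stationary phase, where all probe sets had 0.00 and 0.65, and −0.10 and −0.29 in log phase, where all had −0.47 and −0.67. Among the 126 on the arrays labelled rpl32-2, the smallest adjusted p of early stationary phase was that of rpl702, a large-subunit protein gene with 2 protein-coding genes between it and rpl3202, at −0.43 (SE 0.12, limma adjusted p 0.104), then rpl1502 at −0.52 and rpl102 at −0.61. For cells labelled rpl32-1 it was rpp203, a gene of the acidic stalk proteins, at −0.65 (SE 0.16, adjusted p 0.927). In log phase rpp202 was 0.36 and rpl4101 0.76 above WT on the arrays labelled rpl32-2, and rps1401 was 0.43 above WT in cells labelled rpl32-1, with limma adjusted p from 0.804 to 0.961.

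Compared with other duplicated ribosomal protein genes, the L32 pair varied most from array to array. Symbols that differ only in the last digits gave 52 pairs in 42 families. The SD over 18 arrays of the within-array difference was 1.62 for rpl3201 and rpl3202, with a range of 4.87. The next pair, rpp202 and rpp203, had an SD of 0.688, the median of the 51 other pairs was 0.193, and the narrowest was rps001 and rps002 at 0.0762 (as deposited, rpl1601 and rpl1602). The order of the first 5 pairs was the same as deposited, where the L32 pair had 1.47 and the next 0.673. This is a description, since pairs differ in signal and in how like their probes are.

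**Figure D5:**
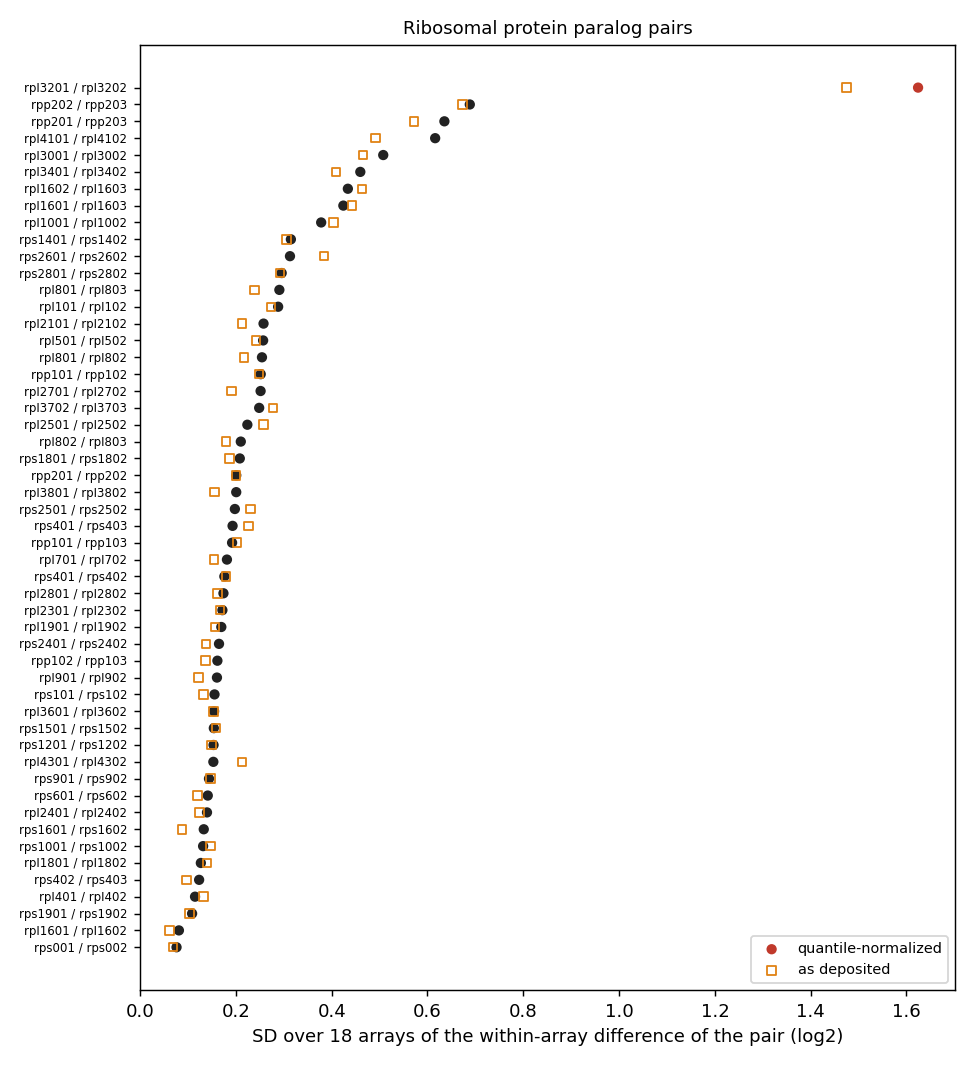
SD over 18 arrays (horizontal axis, log2) of the within-array difference of each of 52 pairs of ribosomal protein paralogs, after quantile normalization (filled, the L32 pair in red) and as deposited (open), from the widest pair down. The L32 pair is at 1.62 and the next pair at 0.688.

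rpl3202 by itself also spread widely within groups. Its pooled within-group SD was 1.99, the fourth widest of 2937 after 2 probe sets of the mating pheromone gene mfm3 at 2.82 and 2.15 and the iron transporter gene str3 at 2.08. That of rpl3201 was 0.684, which ranked 140, and the median was 0.268.

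Between growth phases, neither paralog was called in WT cells. Early stationary minus log was −0.17 for rpl3202 (13.59 against 13.76) and −0.04 for rpl3201 (13.80 against 13.83), with limma adjusted p of 0.938 and 0.960, while 18.8% of all probe sets were called. The SD of rpl3202 was 0.10 in early stationary and 0.03 in log WT cells. Its limma p here therefore reflects the spread of groups not compared, and does not show that its level was unchanged. rpl3202 was lower on all early stationary than on all log arrays, as were 32.6% of all probe sets. The sign of both changes, of rpl3202 and of rpl3201, turned when arrays were centred on their medians, to 0.09 and 0.46. It also turned with centring on the ribosomal protein genes, to 0.07 and 0.44.

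In cells labelled rpl32-1 the change between phases was −1.70 for rpl3202 (SE 1.47, limma adjusted p 0.344) and −1.07 for rpl3201 (SE 0.51, adjusted p 0.0930), beside a call rate of 22.8%. The early stationary arrays were all below the log arrays for rpl3202, as for 35.2% of all probe sets, and overlapped for rpl3201. The rpl3202 change was −0.16 without early stationary array 3, and the rpl3201 change was −0.33 without that array and −1.61 without early stationary array 1, where it was called (adjusted p 0.0166). For the arrays labelled rpl32-2 the changes were −1.03 (SE 1.47, adjusted p 0.639) and −0.65 (SE 0.51, adjusted p 0.356), beside a call rate of 11.8%. That of rpl3202 turned to 0.36 without log array 1 and was −2.76 without early stationary array 1, where that of rpl3201 was −1.06.

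Among the other ribosomal protein genes, 0 of 126 probe sets were called between the phases of WT cells, with a median of −0.17 against −0.07 for all probe sets. In cells labelled rpl32-1 4 of the 126 were called lower, namely rpp203 at −1.50, rps1401 at −1.22, rpl1603 at −1.10 and rpl3002 at −1.09. On the arrays labelled rpl32-2 5 of the 126 were called lower, namely rpl4101 at −1.58, rpp203 at −1.36, rpl3002 at −1.08, rps2202 at −1.07 and rpl3402 at −1.06. Over all probe sets, 18.8%, 22.8% and 11.8% were called in either direction in WT, rpl32-1 and rpl32-2. The limma adjusted p of these 9 values ran from 4.85e-06 to 0.0133. Below 2-fold, rpp203 changed by −0.85 (adjusted p 0.000612) and rpl1002 by −0.58 (adjusted p 0.00191) in WT cells.

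Genes whose pattern over the 18 arrays was most like that of each paralog were found by Pearson's r, given with Spearman's rank correlation as a description, since the arrays share strains, phases and sets. For rpl3202, Pearson's r mostly reflects the split of 5 low arrays from 13 others. For rpl3201 they included rpl13 (r 0.69, Spearman 0.63), rps1502 (0.62, 0.52), sen54 (0.62, 0.51) and myh1 (0.61, 0.54), which encode 2 ribosomal proteins, a subunit of the tRNA splicing endonuclease and a DNA glycosylase. The lowest r were those of tea5 (−0.71, Spearman −0.67), a kinase-like gene, mal1 (−0.67, Spearman −0.52), which encodes maltase, and wtf21 (−0.62, Spearman −0.58). For rpl3202 they were rps1401 (r 0.54, Spearman 0.71), rps1502 (0.52, 0.65), rpl2302 (0.50, 0.53), rps2202 (0.47, 0.75) and the ammonium transporter gene amt3 (0.46, 0.73). Its lowest were mal1 (−0.80, Spearman −0.31), rpp202 (−0.71, Spearman −0.48) and the homoserine O-acetyltransferase gene met6 (−0.53, Spearman −0.52).

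mal1, chosen for the lowest r with rpl3202, measured 9.68 on rpl32-1 early stationary 3, 9.55 and 9.64 on rpl32-2 early stationary 2 and 3, and 9.35 and 9.30 on rpl32-2 log 2 and 3, which are the 5 arrays low in the pair, and 6.64 to 8.63 on the other 13. Its 5 highest values thus fell on the 5 arrays lowest in rpl3202. Among the 13 its order was not the reverse of that of rpl3202, as WT log arrays, at 7.93 to 8.22, were above WT early stationary arrays, at 6.64 to 7.82, and rpl3202 was also higher in WT log.

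None of the nearest named genes at each locus was called against WT (smallest limma adjusted p 0.104), where 0% of all probe sets were called. Beside rpl3201 lie chp2, an HP1-like chromatin protein gene, ogm4, a protein mannosyltransferase gene, sec27, a coatomer subunit gene, and sid4, a spindle pole body scaffold gene. On the arrays labelled rpl32-2 they changed by −0.32, 0.41, 0.07 and −0.15 in early stationary phase and by 0.24, −0.02, 0.03 and 0.03 in log phase. Beside rpl3202 lie rpl501, apc5, a subunit of the anaphase-promoting complex, rpl702 and pol1, the DNA polymerase alpha gene, which changed by −0.19, 0.28, −0.43 and 1.41 in early stationary phase and by 0.04, −0.30, 0.00 and −0.52 in log phase. The value of pol1 in early stationary phase includes 4.03 on WT array 3, an array of weak signal. The lncRNA that overlaps rpl3202 was not analysed here.

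The vector's marker was read on every array, those low in the pair included. LEU2 of S. cerevisiae, a marker that complements leu1-32, measured 12.14 on rpl32-1 early stationary 3 as deposited. It measured 12.40 and 12.26 on rpl32-2 early stationary 2 and 3, and 11.60 and 12.42 on rpl32-2 log 2 and 3. WT arrays gave 13.32, 12.52 and 11.49 in early stationary phase and 12.89, 12.69 and 12.60 in log phase. All log arrays labelled rpl32-1 or rpl32-2 were below WT, at 11.43 to 12.51. The deposited medians of all S. pombe probe sets were also below WT in log phase, by −0.47 and −0.67. The range of LEU2 over all arrays was 11.43 to 13.35. URA3 of S. cerevisiae, another yeast marker, read 3.22 to 4.79, and the probe set for the S. cerevisiae gene RPL32 read 2.16 to 4.13. nmt1, whose chromosomal copy shares the promoter of the insert, measured 14.09 to 14.37 over all arrays, and leu1 12.24 to 13.04. LEU2 reads the vector and not its insert.

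act1, the QPCR standard of the study, measured 12.94 to 13.83 over the 18 arrays. In early stationary phase it was 0.42 above WT on the arrays labelled rpl32-2 and 0.22 above WT in cells labelled rpl32-1, and in log phase it was −0.11 and −0.10 from WT, none of which was called.

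Of 10 genes tied to expression of ribosomal protein genes (the TOR kinases tor1 and tor2, mip1, gad8, psk1, the casein kinase subunits cka1 and ckb1, and fhl1, sfp1 and rrn7), 0 were called in any comparison of a strain with WT. The call rate over all probe sets was 0% there too. Between phases gad8, a kinase below TOR complex 2, rose by 1.27 (SE 0.15, limma adjusted p 2.75e-05) and sfp1, known in budding yeast as an activator of ribosomal protein genes, by 1.19 (SE 0.27, adjusted p 0.00258) in WT cells. In cells labelled rpl32-1 gad8 rose by 1.06 (SE 0.15, adjusted p 6.61e-05). For the arrays labelled rpl32-2, 0 of the 10 were called, beside 11.8% of all probe sets, with gad8 below 2-fold at 0.93 (adjusted p 0.000389).

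A list of 10 genes known to rise as glucose runs out or under stress checked the growth phase. Between phases 9 of 10 were called higher in cells labelled rpl32-1, 8 on the arrays labelled rpl32-2 and 9 in WT cells, with medians of 3.15, 2.39 and 2.97. Over all 2937 probe sets, 344, 168 and 286 were called higher, in the same order. Array 1 labelled rpl32-2 of early stationary phase was below all WT arrays of the phase in 7 of the 10 genes, array 2 in 6 and array 3 in 4. How many of all probe sets did so on each array was not counted. Arrays 1 and 2 were both below in 6 (fbp1, ght3, gld1, hsp16, ntp1 and zym1), and the genes shown were chosen after their values were seen. fbp1, a gene of gluconeogenesis that glucose represses, measured 9.62, 11.83 and 14.06 on arrays 1, 2 and 3, against 13.99, 14.04 and 13.81 in WT cells, and ght3, a hexose transporter gene, 8.57, 9.57 and 12.36, against 12.67, 11.99 and 13.52. In contrast, tps1, a trehalose synthesis gene, measured 12.65, 12.56 and 12.30, against 12.34, 12.40 and 13.04, and gpd1, a glycerol synthesis gene, 12.97, 13.32 and 12.79, against 13.03, 12.56 and 13.03. The part of growth phase in the values of the pair was not tested.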

How the data were processed

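Total RNA was labelled by 3′ in vitro transcription and hybridized to Affymetrix Yeast Genome 2.0 arrays. The deposited values are log2 signals that the authors computed with RMA in Partek, per the labels (versions are not given in the sources used here). Of 10928 probe sets, 2937 named S. pombe probe sets were used, and S. cerevisiae probe sets gave the background. No pair of arrays held identical values.

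Values were quantile-normalized over the S. pombe probe sets and fitted in R 4.3.3 by limma 3.58.1, using 6 group means (lmFit, eBayes) and Benjamini-Hochberg adjustment over 2937. This test and the exact permutation tests, which enumerate all labelings (numpy 2.4.6), measure the spread between arrays, which may be technical in part. The limma fit and the permutation tests were checked on simulated data, the latter against scipy 1.17.1.

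The members, gene lists and tests were chosen with earlier results of these data known. Genes named were both paralogs, act1, the genes most and least like each paralog (1 of them is not reported here), up to 4 ribosomal protein genes a comparison by adjusted p and those called, the nearest named genes, the lists and the widest and narrowest paralog pairs. rpp202/rpp203 and mfm3 and str3 were named after their values were seen. Sequences were copied from the primer list of the study. Other scalings, tests, blocks, filters and left-out arrays were tried.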

Additional observations from a re-analysis of the deposited data

How the results depend on the processing

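With 3 arrays a group and a residual SD of 1.99, only large changes of rpl3202 could be called, and the positions of the probes limit what each value reads. Over 44 results and 32 settings, 1224 of 1266 alternative values kept their direction and their side of the threshold. Array weights brought rpl3202 under the threshold for the strain labelled rpl32-2 against WT in log phase (−2.93), in early stationary phase (−4.04) and over both (−3.48), and for rpl32-1 against rpl32-2 in early stationary phase (3.29). The cause was not tested.

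The directions that turned were of values that no test called. The rpl3201 change in cells labelled rpl32-1 turned to 0.045 in early stationary phase and to 0.17 over both phases when the 5 array sets formed a block, and to 0.030 over both phases with array weights. Median centring turned the WT phase change to 0.46 for rpl3201 and 0.094 for rpl3202, and the rpl3202 change in log cells labelled rpl32-1 to 0.40. Centring on ribosomal protein genes gave 0.44, 0.070 and 0.014 for these 3. Deposited values turned the rpl32-2 interaction of rpl3202 to 0.056, and leaving out the 2 arrays of weakest signal, chosen after seeing the data, turned the WT phase change of the paralog difference to −0.063. Quantile normalization over all probe sets called 1 other ribosomal protein gene between WT phases, against 0.

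Leaving out 1 array at a time gave these ranges. For rpl3201 the rpl32-1 change ran from −1.18 to 0.10 in early stationary phase and from −0.40 to 0.25 over both phases, by limma and by the exact test. The change between phases ran from −0.29 to 0.23 in WT cells and from −1.61 to −0.33 in cells labelled rpl32-1. For rpl3202 the phase change on arrays labelled rpl32-2 ran from −2.76 to 0.36, and the interactions ran from −2.33 to 0.0092 for rpl32-1 and from −2.59 to 0.53 for rpl32-2. The phase change of the paralog difference ran from −0.063 to 0.39 in WT cells, from −0.17 to 1.23 in cells labelled rpl32-1 and from −0.82 to 1.7 on the arrays labelled rpl32-2. Against WT, the change of that difference ran from 0.11 to 1.51 in early stationary and 0.27 to 0.67 in log phase for rpl32-1, and from 1.45 to 3.7 and 0.90 to 3.33 for rpl32-2. The rpl3201 interactions ran from −1.57 to −0.29 for rpl32-1 and from −1.02 to −0.36 for rpl32-2. Over both phases the rpl32-2 exact tests ran from −1.11 to −0.77 for rpl3201, from −4.03 to −2.51 for rpl3202 and from 1.64 to 2.92 for the difference.

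With the replicate number as a block, rpl3202 kept −3.60 in early stationary cells labelled rpl32-2 (limma adjusted p 0.112) and rpl3201 kept −1.21 (adjusted p 0.192), and no call on either gene changed. Of 45 pairs of arrays with the same number, 21 had deviations correlated above 0.1 (median r 0.06). Arrays with different numbers were not compared in this way, so this cannot decide whether the numbers pair the arrays. The main fit did not pair them. The methods' t-test at an unadjusted 5% level and 2-fold called 13 probe sets for rpl32-2 in early stationary phase and 2 in log phase, 0 and 8 for rpl32-1, neither paralog among them, and 0 in all 4 after adjustment.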
